A study of Mus musculus with 6 samples.

Results

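The 60 genes described here encode nucleolar proteins and ribosome biogenesis factors, with 2 enzymes of polyamine synthesis, and are widely listed as targets of MYC proteins. They were chosen by gene symbol, and each was found in all 6 libraries, as 60 of 37732 genes that could be matched between the libraries. Ribosomes are built mainly in the nucleolus, where RNA polymerase I transcribes the ribosomal RNA precursor. Small nucleolar ribonucleoproteins modify this precursor, a large processome folds and cuts it for the small subunit, and a separate set of assembly factors, helicases and GTPases builds the large subunit. MYC and its relative N-Myc are known to activate many of these genes, and rapidly dividing cells are known for high ribosome production.

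RNA-seq was carried out on B-cell acute lymphoblastic leukaemia cells of C57BL/6 mice that had been given lineage-negative fetal liver cells expressing N-Myc together with a GFP reporter. Control mice were fed normally, and the others were fasted for 1 day or 2 days in the middle course of the disease. GFP+B220+ cells were sorted from bone marrow, so N-Myc was present in the cells of all 3 groups. Each group has 2 libraries, which the labels title replicates 1 and 2. The promoter that drives N-Myc, the number of mice behind a library and whether the 2 libraries come from separate mice are not stated in the labels.

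Library depth was 23412288 (replicate 1) and 43785874 (replicate 2) gene reads in control, 28805008 and 45862844 after 1 day, and 36627712 and 19368326 after 2 days. The squared difference between 2 libraries was divided by its read-sampling variance, and the median over genes was given relative to the median under read sampling alone, which is thus 1. Pairs from 1 group had medians of 1.35 to 1.38 and means of 13.1 to 15.9, and pairs from different groups had medians of 6.93 to 21.1, so libraries of a group differed somewhat beyond read sampling. On unique reads alone, pairs from 1 group had medians of 1.09 to 1.10 and means of 3.21 to 4.40, closer to read sampling. The libraries were used as replicates (n = 2 a group) as labelled. Because nothing says that they come from separate mice, p-values measure the spread between these libraries only, which may be technical. The test is edgeR's quasi-likelihood test over all genes kept, with Benjamini-Hochberg adjustment and a threshold of 0.05, and every adjusted p below comes from it. Levels are CPM, the total gene reads adjusted for library size, after scaling by trimmed mean of M-values (TMM), and folds are ratios of mean CPM on a log2 scale with 0.1 CPM added. Mycn, the driving oncogene, had 2143 and 2212 CPM in control, 2098 and 2137 CPM after 1 day, and 2266 and 2257 CPM after 2 days, while endogenous Myc had 6 to 29 reads in any library. Markers of other cells moved between the groups: the 9 measured of 10 erythroid markers summed to 435 and 451 CPM in control, 561 and 574 CPM after 1 day, and 993 and 982 CPM after 2 days. The 10 neutrophil markers summed to 997 and 1029 CPM in control, 648 and 680 CPM after 1 day, and 875 and 884 CPM after 2 days. Monocyte and dendritic markers (9 of 10) summed to 39.4 to 45.5 CPM in control, 50.1 to 56.4 CPM after 1 day and 76.7 to 79.8 CPM after 2 days. T and NK markers (9 of 10) summed to 7.03 to 7.10 CPM in control, 12.5 to 13.4 CPM after 1 day and 4.45 to 4.69 CPM after 2 days. The B-lineage list (9 of 10) summed to 3045 and 3104 CPM in control, 3467 and 3468 CPM after 1 day, and 3142 and 3093 CPM after 2 days. Of its genes, Vpreb1 had 57.5 and 57.0 CPM in control, 46.77 and 49.98 CPM after 1 day, and 1.38 and 1.15 CPM after 2 days. It was the extreme of this list, whose log2 folds after 2 days ran from -5.40 to 0.68 with a median of -0.00. In the mean and each replicate, 1 of the 9 was then higher than control by 1.5-fold and 2 were lower. The part of these cells in the results below was not tested, and in bulk RNA fewer cells of a type and less RNA per cell cannot be told apart.

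The nucleolar and ribosome biogenesis genes differed from control by small amounts at both fasting times. A fold within a replicate sets libraries of the same number side by side. None of the 60 differed from control by 1.5-fold both in the mean and within every replicate, neither after 1 day, where 7.09% of all 14236 genes kept by the filter on low counts did so, nor after 2 days, where 19.5% did. Between 2-day and 1-day fasting none of the 60 passed this fold either, beside 14.1% of all genes kept. All 60 members passed the filter. Since the members are well expressed, the share was also taken over the 4629 genes with a mean of at least 50 CPM, where it was 1.58% after 1 day, 7.41% after 2 days and 3.97% between the fasting times.

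At the lower fold of 1.2, on the same terms, 0 members were higher and 1 was lower after 1 day, where 12.1% of all genes kept were higher and 9.31% lower, and 5.68% and 4.21% of genes of at least 50 CPM. After 2 days 1 member was higher and 3 were lower, where 19.9% of all genes kept were higher and 20.2% lower, and 11.1% and 16.7% of genes of at least 50 CPM. Between 2-day and 1-day fasting 1 was higher and 1 was lower, where 14% of all genes kept were higher and 17.5% lower, and 6.35% and 10.9% of genes of at least 50 CPM. These members, Utp20, Nop14, Npm1, Brix1 and Grwd1, are described with their roles below. The median log2 fold of the members was -0.01 after 1 day and 0.04 after 2 days, and the 2-day level stood 0.04 above the 1-day level. The corresponding medians over all genes kept were 0.01, -0.00 and -0.01. The 2 comparisons with control share the control libraries.

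The members also lay closer together than genes at large. The middle 50% of members spanned 0.08 on the log2 scale after 1 day and 0.15 after 2 days, whereas the middle 50% of genes of at least 50 CPM spanned 0.20 and 0.34. That of the 79 cytosolic ribosomal protein genes spanned 0.08 and 0.16, so a narrow span was not particular to the members. After 1 day members ran from -0.32 (Utp20) to 0.23 (Ppan), and after 2 days from -0.36 (Brix1) to 0.34 (Nop14). In a single replicate no member went beyond -0.40 or 0.39. Between the 2 replicates of a group the members' log2 levels differed with an SD of 0.03 to 0.04. Groups did not overlap for 68.3% of members after 1 day, 80% after 2 days and 80% between the fasting times. These shares were 67.9%, 77.0% and 73.7% of all genes kept, and 81.4%, 87.6% and 83.9% of genes of at least 50 CPM. Groups that do not overlap, as given for single members below, were thus usual for genes at large.

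Shifts of this size were nonetheless within reach of the test, for members as for genes at large. After 1 day 11 members rose and 10 fell, where 17.6% of all genes kept rose and 15.3% fell, and of genes of at least 50 CPM 24.1% and 28.5%. After 2 days 24 rose and 12 fell, where these shares were 26.6% and 29.3%, and 29.8% and 43.6%. Relative to 1-day fasting, 24 were higher and 12 lower after 2 days, where the shares were 19.9% and 26.1%, and 25.2% and 38%. The total share of members called, 35%, 60% and 60%, stood beside 32.9%, 55.9% and 46.0% of all genes kept. By the shares above, genes of at least 50 CPM were called more often than members in each comparison. The split depended on scaling: with library size only, 13 rose and 9 fell after 1 day, 39 and 11 after 2 days, and 37 and 10 between the fasting times. The 1-day count of 21 was 12 and 11 without replicate 1 or 2 of control, and 8 and 6 without replicate 1 or 2 of the 1-day group. The count of 36 between the fasting times was 17 without replicate 2 of the 1-day group.

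**Figure D1:**
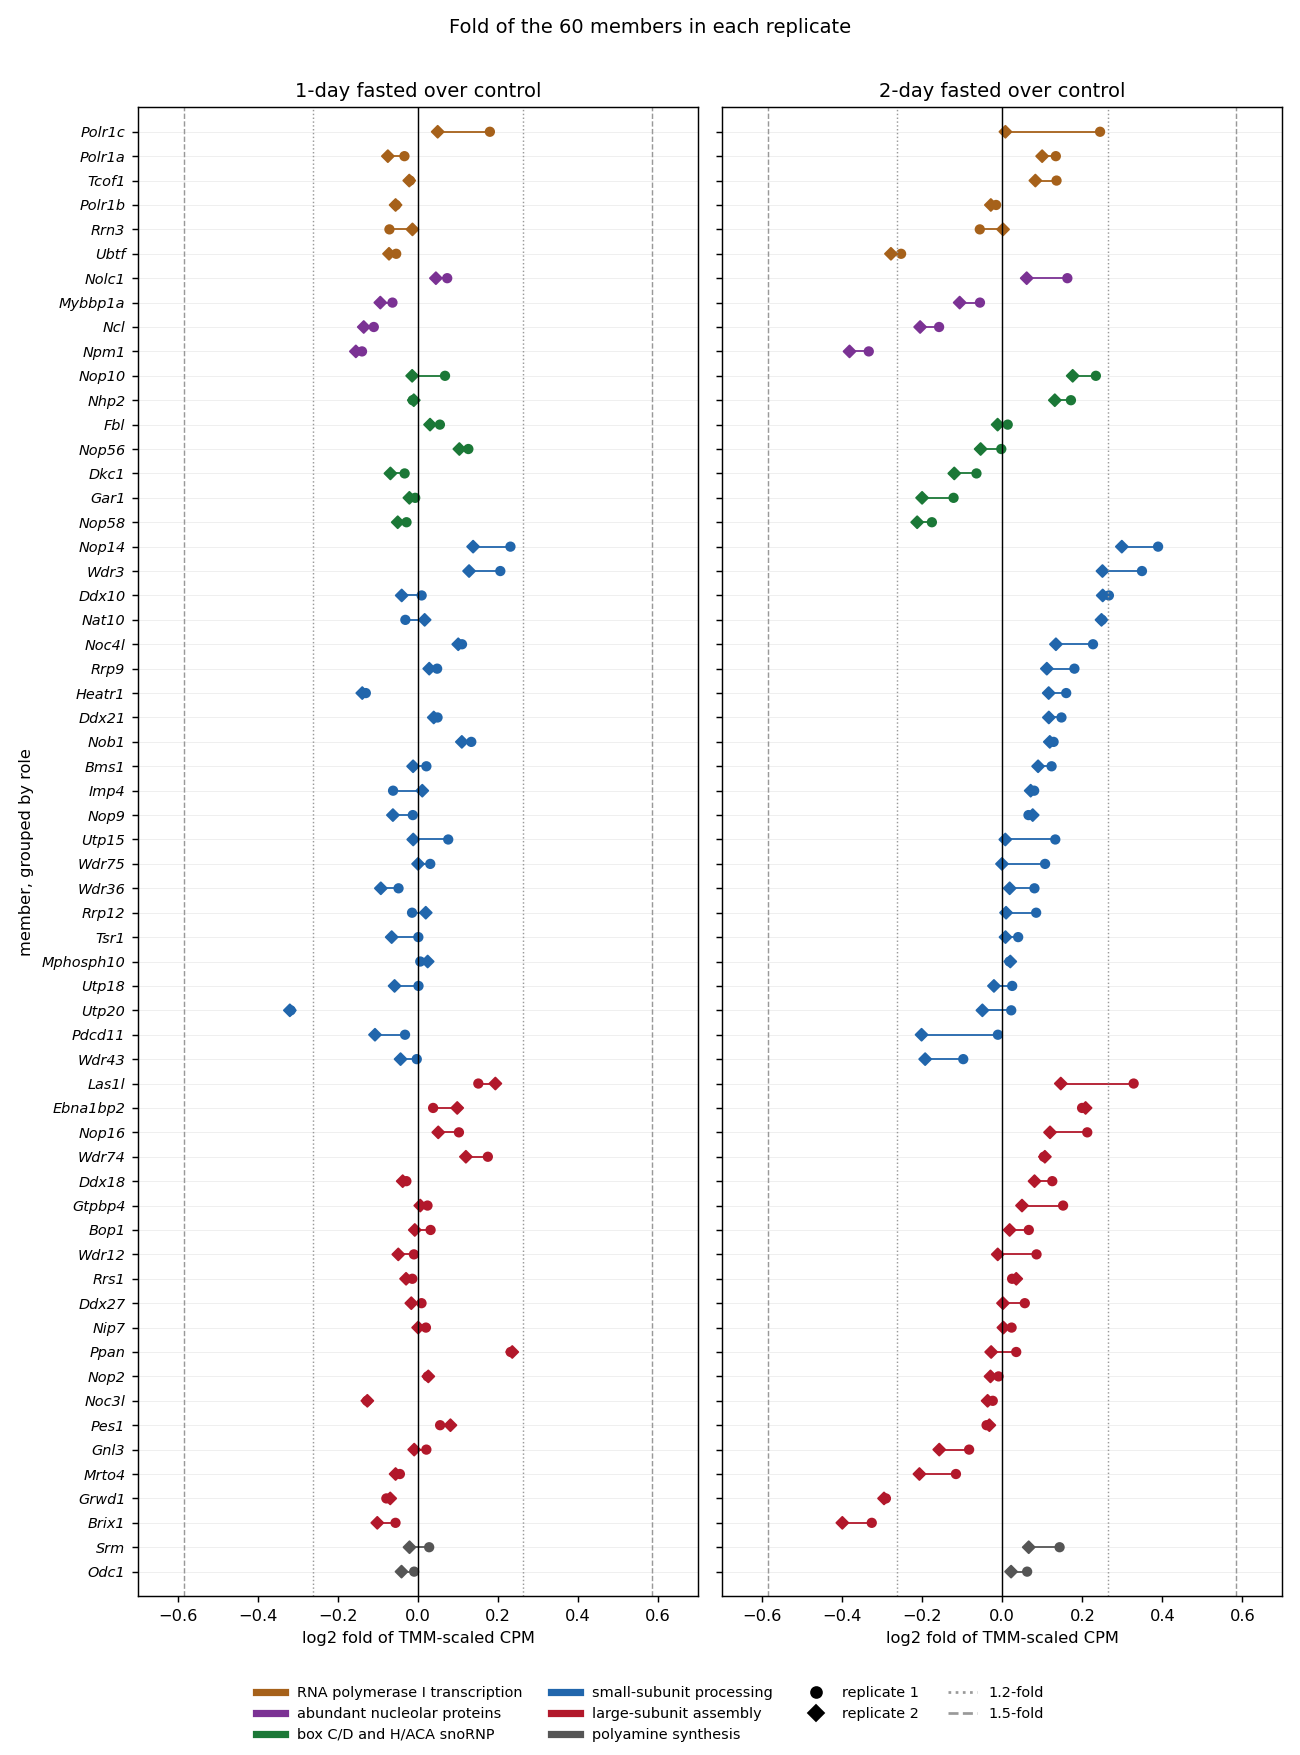
Log2 fold of TMM-scaled CPM (x axis) of each of the 60 members (y axis, grouped by role in colour), for 1-day fasted over control on the left and 2-day fasted over control on the right. Circles are replicate 1 and diamonds replicate 2, joined by a line; dotted lines mark 1.2-fold and dashed lines 1.5-fold, and no member reaches 1.5-fold in either panel.

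Levels between members are compared as the deposited RPKM, which divides by exon length. In control the members spanned 10.9 RPKM (Las1l) to 1254 RPKM (Npm1). The 6 most abundant were Npm1, Fbl at 404 RPKM, Ncl at 369, Srm at 223, Nop58 at 198 and Gnl3 at 196 RPKM. The value for Fbl is uncertain, since 8.33% of its reads were unique to it, and likewise for Npm1, with 40.9% unique. In all, 10 members had under 80% unique reads and 48 had at least 90%. Overlapping genes on the other strand held at least 5% as many reads as the member for 7 members, up to 45.5% for Pdcd11, and since the strand setting of the counting is not stated, reads of such pairs cannot be told apart.

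**Figure D2:**
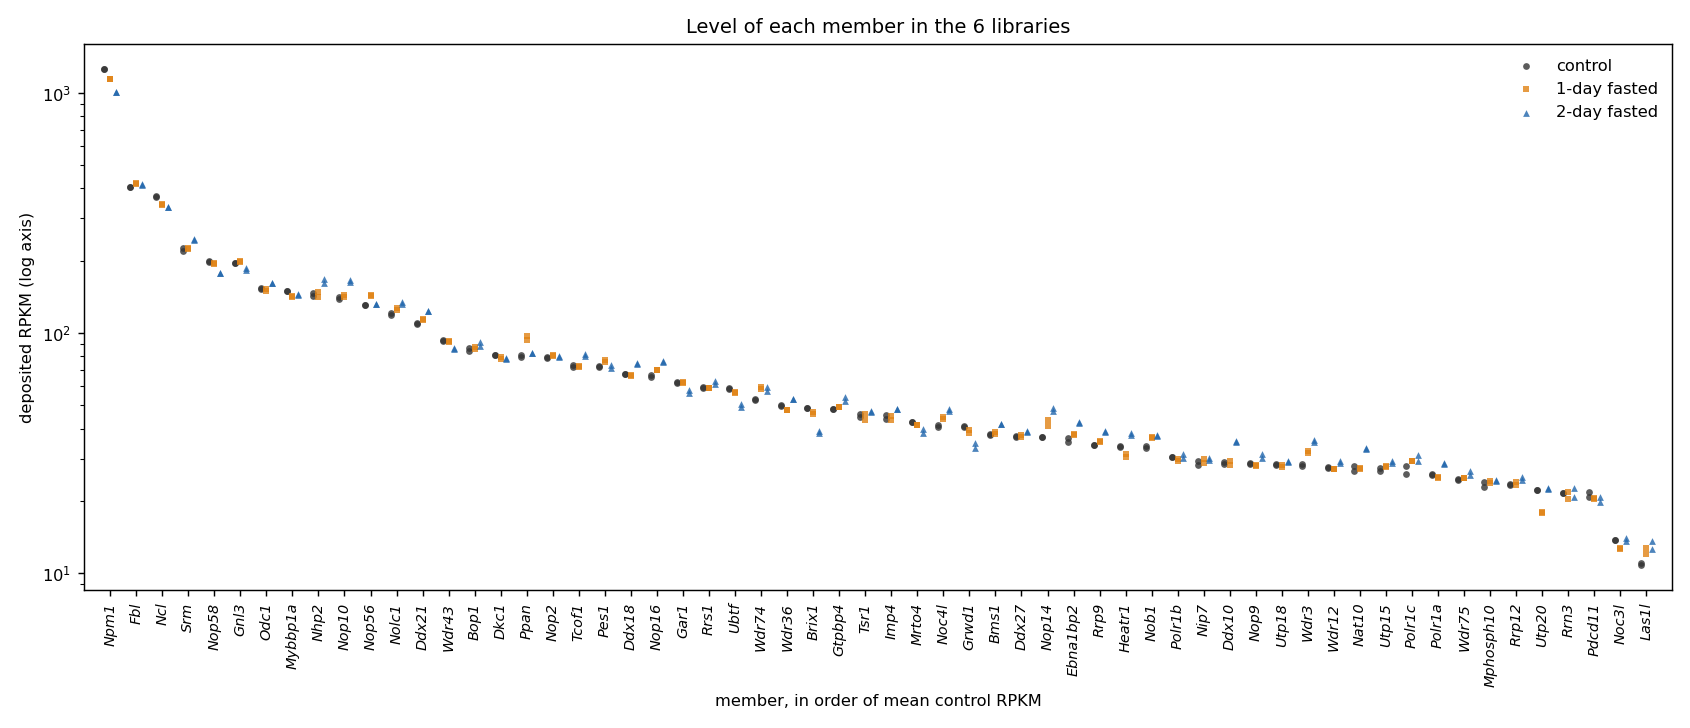
Deposited RPKM on a log axis (y) of the 60 members (x, in order of mean control RPKM) in each library; circles are control, squares 1-day fasted and triangles 2-day fasted, with 2 replicates each. The span from 10.9 RPKM (Las1l) to 1254 RPKM (Npm1) in control is far wider than any shift between groups.

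The canonical MYC-binding E-box, CACGTG, was looked up in RefSeq promoter windows (GRCm38.p6, 250 bases before to 50 bases after each annotated start). The motif reads the same on both strands and was searched with overlaps allowed. Windows were matched by symbol for 52 of the 60 members. Of these, 10 (19.2%) held the motif, beside 8.09% of all 27025 genes with windows and 11.8% of the genes kept by the filter. The share was 19.4% of other ribosome biogenesis genes, 31.2% of other MYC targets and 10.3% of cytosolic ribosomal protein genes. A match describes the letters only and is not a site of binding. The motif with its flanking bases, a short stretch of the window, is printed below for members with a motif whose RNA is described further on, namely Utp20, Grwd1, Wdr43, Pes1 and Mybbp1a, each 5′ to 3′ on the gene's strand with the motif in capitals.
Utp20: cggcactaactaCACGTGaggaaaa
Grwd1: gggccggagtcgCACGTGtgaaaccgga
Wdr43: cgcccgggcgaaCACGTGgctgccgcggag
Pes1: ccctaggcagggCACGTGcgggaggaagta
Mybbp1a: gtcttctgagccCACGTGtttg
They lie at chr10:88826765-88826789 on the minus strand for Utp20, chr7:45830740-45830767 on the minus strand for Grwd1, chr17:71616220-71616249 on the plus strand for Wdr43, chr11:3963965-3963994 on the plus strand for Pes1 and chr11:72441355-72441376 on the plus strand for Mybbp1a. The motif begins 37, 34, 17, 2 and 40 bases after the annotated start of Utp20, Grwd1, Wdr43, Pes1 and Mybbp1a.

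Rrn3, the initiation factor that brings RNA polymerase I to ribosomal DNA, was the member with 2 motifs, 215 and 48 bases before its start. Its 250 bases before the start, at chr16:13780449-13780698 on the plus strand, are shown because both lie in it.
Rrn3: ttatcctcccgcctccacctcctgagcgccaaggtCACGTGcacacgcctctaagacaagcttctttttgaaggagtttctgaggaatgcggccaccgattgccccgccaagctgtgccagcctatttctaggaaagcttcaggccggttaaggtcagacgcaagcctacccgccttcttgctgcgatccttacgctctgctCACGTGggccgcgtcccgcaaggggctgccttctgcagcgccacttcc
The 10 members with the motif had a median log2 fold of -0.03 after 1 day and -0.02 after 2 days, and the 42 matched members without it had 0.00 and 0.09. The ranges overlapped: after 2 days members with the motif ran from -0.29 to 0.08 and those without from -0.36 to 0.34.

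Among the abundant nucleolar proteins, the highest transcripts were lower after fasting. Npm1, nucleophosmin, a chaperone of the outer nucleolus, lies at chr11:33152287-33163206 on the minus strand of mm10. It had 3568 and 3613 CPM in control, 3237 and 3243 CPM after 1 day, and 2831 and 2773 CPM after 2 days. No library overlapped between groups, and the 3 levels were ordered control, 1 day, 2 days from high to low. Its log2 fold was -0.15 after 1 day and -0.36 after 2 days (replicates -0.33 and -0.38), and on unique reads alone it was -0.14 and -0.34. Npm1 fell at both times (edgeR adjusted p = 0.007 and 4.93e-05). Ncl, nucleolin, an RNA-binding protein of ribosomal RNA synthesis and early processing, had 3257 and 3289 CPM in control, 3017 and 2993 CPM after 1 day, and 2920 and 2852 CPM after 2 days. All its fasted libraries were below both control libraries, with log2 folds of -0.12 and -0.18 (edgeR adjusted p = 0.0149 and 0.00132). Over the 12 alternatives the p of the first comparison ran up to 0.344 for Npm1 and 0.448 for Ncl.

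The other members of this group were steadier. Nolc1, a chaperone of small nucleolar ribonucleoproteins, had 460 and 476 CPM in control, 484 and 491 CPM after 1 day, and 515 and 497 CPM after 2 days. Its fasted libraries were all above control, by 0.06 and 0.11 on the log2 scale. Mybbp1a, a nucleolar protein that binds Myb, was lower by a log2 fold of -0.08 at both times, with 924 and 937 CPM in control, 884 and 877 CPM after 1 day, and 889 and 870 CPM after 2 days.

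Because Npm1 and Ncl are so abundant, they weighed heavily in the summed level of the list. All 60 members summed to 19347 and 19622 CPM in control, 18883 and 18866 CPM after 1 day, and 18705 and 18311 CPM after 2 days, a difference from control of -3.13% after 1 day and -5.01% after 2 days. Npm1 and Ncl together differed by -9.01% and -17.1%. The other 58 members summed to 12522 and 12721 CPM in control, 12629 and 12630 CPM after 1 day, and 12954 and 12686 CPM after 2 days, with differences of 0.07% and 1.58%. With no TMM factor, the 2-day differences were -1.27% for all 60 and 5.58% for the 58.

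The genes of RNA polymerase I transcription moved in both directions within a narrow band. Ubtf, the upstream binding factor that keeps ribosomal DNA open, had 407 and 417 CPM in control, 391 and 396 CPM after 1 day, and 341 and 344 CPM after 2 days. Its groups did not overlap, and its log2 fold was -0.06 after 1 day and -0.27 after 2 days (replicates -0.25 and -0.28), the lowest of the 6 genes (edgeR adjusted p = 0.0441 and 3.94e-05). Tcof1, treacle, a nucleolar partner of the polymerase and the most abundant of the 6 per length, had 414 and 413 CPM in control, 408 and 407 CPM after 1 day, and 455 and 437 CPM after 2 days. It was below both control libraries after 1 day (-0.02) and above both after 2 days (0.11). Polr1c, a subunit shared with RNA polymerase III, had 63.1 and 69.1 CPM in control, 71.4 and 71.5 CPM after 1 day, and 74.7 and 69.4 CPM after 2 days. Its 2-day fold of 0.13 was 0.24 in replicate 1 and 0.01 in replicate 2.

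The subunits of the catalytic core, Polr1a and Polr1b, had log2 folds of -0.06 each after 1 day, and 0.12 and -0.02 after 2 days. Polr1a had 167 and 171 CPM in control, 163 and 162 CPM after 1 day, and 183 and 183 CPM after 2 days, so its 1-day libraries were the lowest and its 2-day libraries the highest (edgeR adjusted p = 0.00118 after 2 days). Rrn3 had log2 folds of -0.04 and -0.03, and its fasted libraries overlapped control at both times.

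Proteins of the small nucleolar ribonucleoproteins split after 2 days. Nop10, a small core protein of the box H/ACA particles that guide pseudouridylation, had 163 and 169 CPM in control, 171 and 167 CPM after 1 day, and 192 and 191 CPM after 2 days. Its 2-day libraries were above all others, by 0.20 over control (edgeR adjusted p = 0.000261; replicates 0.23 and 0.18), and Nhp2, another H/ACA core protein, stood 0.15 above control. Dkc1, the pseudouridine synthase of the same particles, was at -0.09, and Gar1, their remaining core protein, at -0.16, so the 4 proteins of one particle did not move together. Reads of Nhp2 and Dkc1 cannot be told apart from those of overlapping genes on the other strand, which held 20.9% and 18.7% as many reads.

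The proteins of the box C/D particles, whose RNAs guide methylation of ribosomal RNA, were flat or lower after 2 days. Nop58, a scaffold protein of these particles, had 420 and 422 CPM in control, 411 and 407 CPM after 1 day, and 372 and 364 CPM after 2 days. Both fasted groups were below control, by -0.04 and -0.19. Its partner Nop56 had log2 folds of 0.11 and -0.03, but 70.4% of its reads were unique. An overlapping gene on the other strand held 31.9% as many reads as Nop56. Fbl, the methyltransferase fibrillarin, had 500 and 506 CPM in control, 519 and 516 CPM after 1 day, and 505 and 502 CPM after 2 days. Its log2 folds were 0.04 and 0.00 on total reads, but 0.15 and -0.17 on unique reads.

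Of the 22 factors of small-subunit processing, 12 rose and 1 fell after 2 days, and 4 rose and 3 fell after 1 day (edgeR adjusted p under 0.05). Of all genes kept, 26.6% rose and 29.3% fell after 2 days, and 17.6% and 15.3% after 1 day. Their summed level was 3710 and 3757 CPM in control, 3724 and 3705 CPM after 1 day, and 4031 and 3927 CPM after 2 days, which is -0.50% and 6.58% from control. Nop14, which works with Noc4l on the small-subunit precursor in yeast, had 107 and 109 CPM in control, 126 and 120 CPM after 1 day, and 141 and 134 CPM after 2 days. The groups did not overlap, with control lowest and 2 days highest, at log2 folds of 0.18 and 0.34 (replicates 0.39 and 0.30 after 2 days; edgeR adjusted p = 0.00573 and 0.000128). Ratios of pooled reads were 1.13 (95% interval 1.09 to 1.16) and 1.28 (1.24 to 1.32), where intervals cover counting error only. Noc4l was also above control, by 0.10 and 0.18.

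Wdr3, a subunit of the UTP-B complex of the processome, was at 0.17 and 0.30, but 73.2% of its reads were unique and an overlapping gene on the other strand held 11.6% as many reads. Ddx21, an RNA helicase and the most abundant of the 22 per length, had 558 and 560 CPM in control, 577 and 575 CPM after 1 day, and 618 and 607 CPM after 2 days. It was above control at both times, by 0.04 and 0.13. The helicase Ddx10 and the RNA acetyltransferase Nat10 were close to control after 1 day (-0.02 and -0.01) and above it after 2 days (0.26 and 0.25). Wdr43, a UTP-A complex protein, had 339 and 350 CPM in control, 339 and 340 CPM after 1 day, and 317 and 306 CPM after 2 days. Its log2 fold of -0.15 after 2 days was the lowest of the 22.

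Utp20 and Heatr1, long HEAT-repeat proteins of the processome that were singled out after their values were seen, were lower after 1 day and not after 2 days. Utp20 had 209 and 212 CPM in control, 168 and 170 CPM after 1 day, and 212 and 205 CPM after 2 days. Its 1-day libraries lay well below all others, whereas the 2-day and control libraries overlapped. The log2 fold was -0.32 after 1 day (-0.32 in each replicate), -0.01 after 2 days, and 0.31 between 2-day and 1-day fasting, with edgeR adjusted p of 0.000126, 0.703 and 6.41e-05. Heatr1 had 234 and 240 CPM in control, 213 and 218 CPM after 1 day, and 261 and 260 CPM after 2 days. It was below both controls after 1 day (-0.14) and above both after 2 days (0.14), with edgeR adjusted p of 0.00306 and 0.00122.

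The 19 large-subunit assembly factors spread in both directions: 6 rose and 2 fell after 1 day, and 6 rose and 4 fell after 2 days (edgeR adjusted p under 0.05), beside the shares of all genes kept given above. Brix1, an assembly factor of the early large subunit, had 142 and 143 CPM in control, 136 and 134 CPM after 1 day, and 113 and 109 CPM after 2 days. The groups did not overlap, and the log2 fold was -0.08 after 1 day and -0.36 after 2 days (replicates -0.33 and -0.40; edgeR adjusted p = 0.0277 and 1.62e-05). The ratio of pooled reads after 2 days was 0.781 (95% interval 0.756 to 0.807). Grwd1, a histone-binding protein that associates with pre-ribosomes, had 88.6 and 91.0 CPM in control, 83.9 and 86.7 CPM after 1 day, and 72.4 and 74.1 CPM after 2 days, and was lower by a log2 fold of -0.07 and -0.29 (edgeR adjusted p = 0.0862 and 0.000146). Its groups did not overlap.

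Las1l, the endonuclease that cuts the internal spacer of the large-subunit precursor, had 93.9 and 96.9 CPM in control, 104 and 111 CPM after 1 day, and 118 and 107 CPM after 2 days. It was above control at both times, by 0.17 and 0.24, with replicates of 0.33 and 0.15 after 2 days. Gnl3, nucleostemin, a nucleolar GTPase and the most abundant of the 19 per length, had 394 and 399 CPM in control, 400 and 396 CPM after 1 day, and 372 and 358 CPM after 2 days. It was level after 1 day (0.01) and lower after 2 days (-0.12). Ppan, a factor related to yeast Ssf1, had 213 and 220 CPM in control, 250 and 259 CPM after 1 day, and 218 and 216 CPM after 2 days. Its 1-day libraries stood apart, by 0.23 (edgeR adjusted p = 0.000699), while the 2-day libraries overlapped control. Pes1, Bop1 and Wdr12, which form one complex, had log2 folds of 0.07, 0.01 and -0.03 after 1 day and -0.04, 0.04 and 0.04 after 2 days. The summed level of the 19 factors was 1.99% above control after 1 day and -0.01% from it after 2 days.

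The enzymes of polyamine synthesis, whose products bind RNA, were near control. Srm, spermidine synthase, had 375 and 390 CPM in control, 382 and 384 CPM after 1 day, and 414 and 408 CPM after 2 days. Its 1-day libraries lay inside the control range and its 2-day libraries above it, with log2 folds of 0.00 and 0.10. Odc1, ornithine decarboxylase, the rate-limiting enzyme, had 416 and 420 CPM in control, 413 and 408 CPM after 1 day, and 434 and 426 CPM after 2 days. It was at -0.03 after 1 day and 0.04 after 2 days, and 58.8% of its reads were unique.

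Intron reads, which come mainly from unspliced RNA, gave another view of the same genes. Of all gene reads, 10.4% to 11.7% fell in introns in each library, and 51 members had a mean of at least 100 intron reads. Their median intron log2 fold was 0.22 after 1 day (replicates 0.25 and 0.23), while the median exon fold of the same genes was -0.02. After 2 days the intron median was -0.16 (replicates -0.19 and -0.23) and the exon median 0.05. Over all 5527 genes with as many intron reads, the intron medians were 0.11 and -0.13, so introns at large shifted the same way. After 1 day 36 of the 51 were higher in the mean and both replicates and 2 lower, beside 54% and 27.4% of all these genes. After 2 days 4 were higher and 33 lower, beside 27.2% and 54.7%. With TMM factors taken from the intron reads themselves, an alternative chosen after seeing the data, the members' medians were 0.10 after 1 day and -0.08 after 2 days, and those of all 5527 genes -0.01 and -0.05.

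In the direct comparison of 2-day with 1-day fasting, the intron median of the members was -0.44 and that of all genes -0.26. Of the 51 members, 48 were lower and 1 higher in the mean and both replicates, beside 69.8% and 15.5% of all genes. At 1.5-fold 0 members were higher and 11 lower, beside 1.54% and 9.35% of all genes. With factors from the intron reads, the medians were -0.24 and -0.05, and 3 members were lower by 1.5-fold. On these factors 40 members were lower and 3 higher in the mean and both replicates, beside 44.3% and 32.5% of all genes. These factors also gave 2 members higher by 1.5-fold after 1 day and 4 lower after 2 days, fewer than the 3 and 5 given below. The shares of all genes at this fold were not computed on that scaling.

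**Figure D3:**
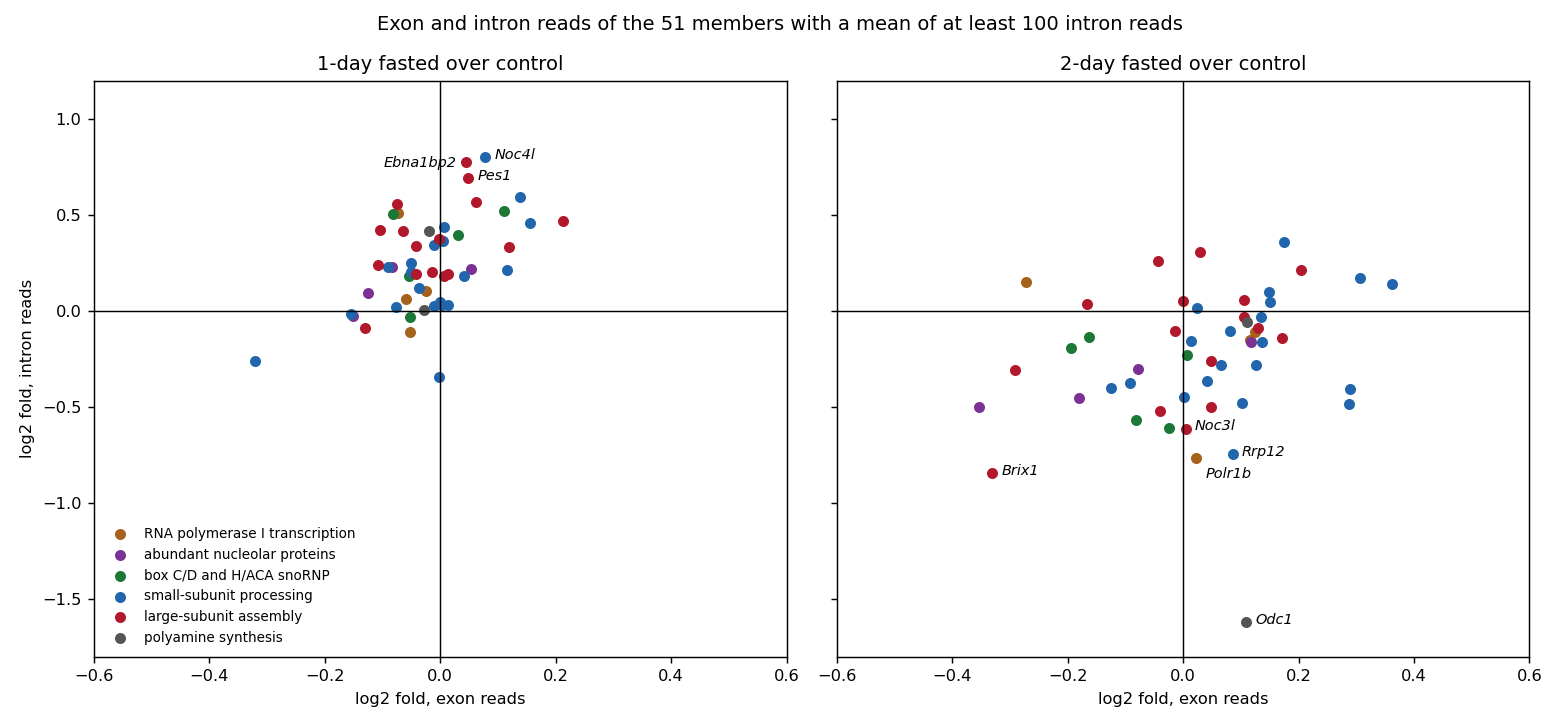
Log2 fold on exon reads (x axis) and on intron reads (y axis) of the 51 members with a mean of at least 100 intron reads, for 1-day fasted over control on the left and 2-day fasted over control on the right, coloured by role. Named points passed 1.5-fold on intron reads in the mean and each replicate; most points lie above 0 on the y axis after 1 day and below it after 2 days, and Odc1 lies lowest at -1.62.

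After 1 day 3 members were higher by 1.5-fold on intron reads and 0 lower, beside 4.09% and 1.1% of all genes with as many intron reads. Noc4l had 159 and 232 intron reads after 1 day and 73 and 124 in control, a log2 fold of 0.80 after scaling (0.81 and 0.80 in the replicates). Ebna1bp2, a large-subunit assembly factor, had 150 and 252 intron reads after 1 day and 69 and 139 in control, a log2 fold of 0.78. Pes1 was at 0.69, but only 11.8% to 15.7% of its intron reads were unique. The exon folds of Noc4l, Ebna1bp2 and Pes1 were 0.08, 0.04 and 0.05.

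After 2 days 0 members were higher by 1.5-fold on intron reads and 5 lower, beside 3.93% and 9.61% of all these genes. The 5 were Odc1 (-1.62), Brix1 (-0.84), Polr1b (-0.77), Rrp12 (-0.74), a factor in the export of pre-ribosomes, and Noc3l (-0.61). Odc1 intron reads, scaled as above, were 27.0 and 26.9 CPM in control, 27.5 and 26.7 CPM after 1 day, and 8.74 and 8.69 CPM after 2 days. The 2-day libraries were thus far below all others and the 1-day libraries were level with control. Introns made up 2.01% and 2.04% of Odc1 gene reads after 2 days, against 6.49% and 6.41% in control. The ratio of pooled reads after 2 days was 0.324 on introns (95% interval 0.292 to 0.358) and 1.08 on exons (1.06 to 1.10). Of the intron reads 97.9% to 99.2% were unique to Odc1, but of all its gene reads only 58.8% were. The exon ratio and the intron share thus include exon reads that also match elsewhere. Brix1 was lower on both, with intron levels of 5.91 and 5.57 CPM after 2 days and 10.99 and 9.74 CPM in control. Several introns of the list hold small nucleolar RNA genes, among them those of Ncl, Nop56, Nop58, Gnl3 and Wdr43, and these RNA genes had 0 or 1 reads in all 6 libraries together.

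A further 115 ribosome biogenesis genes outside the list had median log2 folds of 0.00 after 1 day and 0.03 after 2 days. Their middle 50% spanned 0.12 and 0.20. After 1 day 0 of them passed 1.5-fold, beside 7.09% of all genes kept, and after 2 days 0 were higher and 2 lower, beside 19.5% in either direction. The 2 lower genes were Znrd1, a subunit of RNA polymerase I, and Taf1b, of the polymerase I promoter selectivity factor. Znrd1 had 21.3 and 22.1 CPM after 2 days and 36.8 and 37.8 CPM in control (-0.78). Taf1b had 27.3 and 25.9 CPM after 2 days and 41.2 and 39.4 CPM in control (-0.60). In the edgeR test 18 of the 115 rose and 18 fell after 1 day, beside 17.6% and 15.3% of all genes kept. After 2 days 38 rose and 25 fell, beside 26.6% and 29.3%.

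The 79 cytosolic ribosomal protein genes had medians of 0.13 and 0.12, and 50 MYC targets outside ribosome biogenesis had -0.09 and -0.11. Among these 50 targets 1 gene was lower by 1.5-fold after 1 day, Ccnd2 (-0.73), and 2 were lower after 2 days, Ccnd2 (-1.90), which encodes cyclin D2, and Tert (-1.56), the telomerase catalytic subunit, both under 7 CPM. The shares of all genes kept at this fold, in either direction, were 7.09% and 19.5%. No difference between lists was tested.

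**Figure D4:**
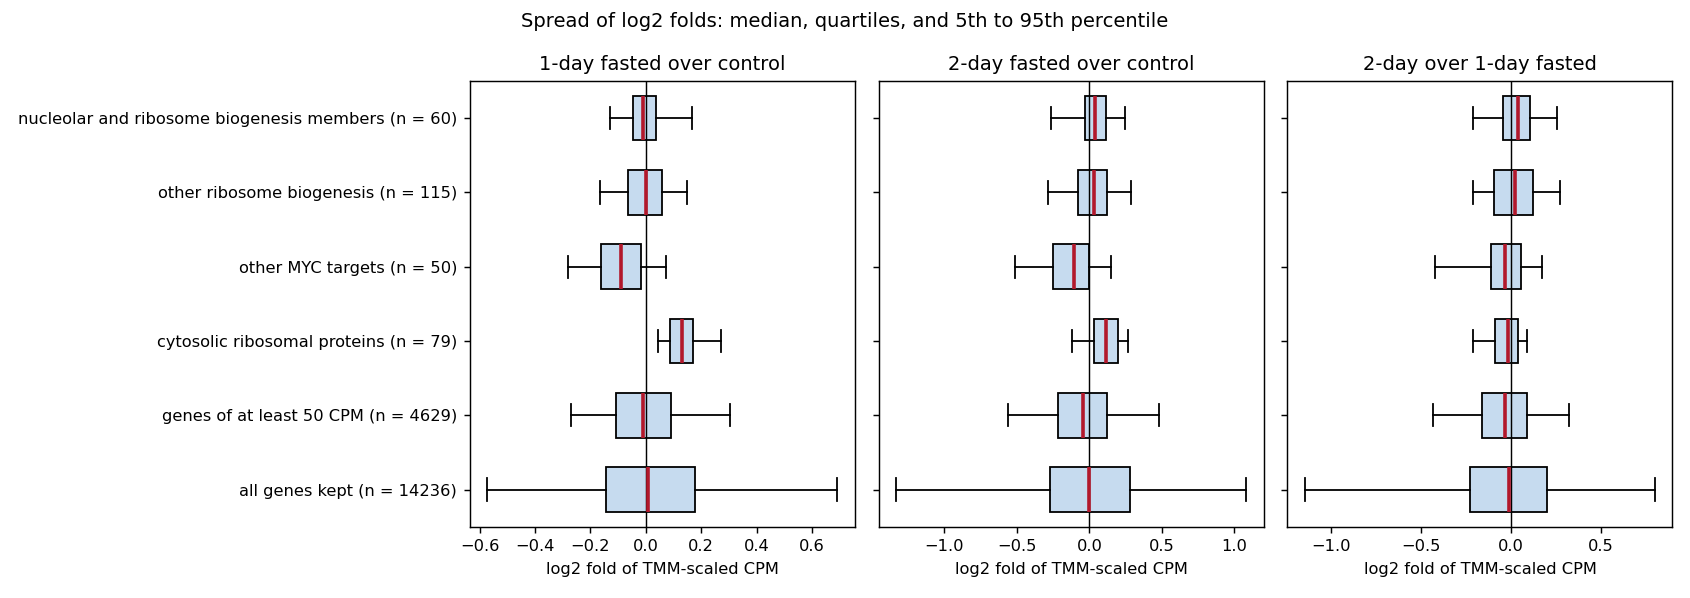
Log2 fold of TMM-scaled CPM (x axis; the scale differs between panels) for the 60 members, 3 other lists, genes of at least 50 CPM and all genes kept (y axis, with numbers of genes), in 3 comparisons. Boxes span the middle 50%, the red line is the median and whiskers run from the 5th to the 95th percentile; the members' boxes are 0.08, 0.15 and 0.15 wide.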

How the data were processed

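The deposited tables give per gene, per the file headers, read counts (total and unique, over genes, exons and introns) and RPKM values computed by the authors. Reads were 51 bases, single-end, per the labels' protocols, and TopHat2 and the build mm10 are named in the submitters' processing notes. Which program counted reads, on what annotation and with what strand setting, is not given in the sources used here. Replicates 1 and 2 list 38355 and 38924 genes. Matching by identical position (37429 genes) and otherwise by symbol on the same chromosome (303) kept 95.45% to 99.96% of gene reads.

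Counts were scaled with TMM factors (edgeR 4.0.16, R 4.3.3) and filtered with filterByExpr (minimum count 10). A gene was counted as differing where the mean and each replicate passed the fold in one direction. No test had been planned, since earlier results counted the libraries of a group as 1 sample. The edgeR quasi-likelihood test (no block, all 6 libraries in 1 fit) was added after seeing the data. Intervals for ratios of pooled reads are exact 95% binomial. Scripts were tested on simulated data.

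The members, lists and comparisons were chosen with earlier results of these data known. Named were, in each role group, the member highest in control RPKM and those with the largest positive and negative 2-day folds; also any gene outside the list past 1.5-fold with at least 5 CPM, up to 4 per direction. Other members were chosen after their values were seen. Ebf1 and Ahsp, on the marker lists, and protein sequences were not analysed here. Alternatives were DESeq2 1.42.0 size factors, library size only, unique and exon reads, RPKM, other filters, a pseudocount of 1 CPM and leaving out each library; for the test also a replicate block and DESeq2's own test.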

Additional observations from a re-analysis of the deposited data

Results flagged for a closer look

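In 12 of the 60 members both replicates moved one way after 1 day and the opposite way after 2 days, relative to control. The 12 were picked by this pattern from these same libraries, and the share of all genes showing it was not computed. Both comparisons share the control libraries, and the difference between the fasting times is the 2-day against 1-day comparison, tested with edgeR's quasi-likelihood test. That test does not show that either fold differs from control, and its p-values here are for members picked by this pattern. The smallest fold against control was -0.01, for Nhp2 after 1 day, where its libraries overlapped control. The 1-day fold was below 0 and the 2-day fold above it for Heatr1, with a difference in log2 fold of 0.27 (edgeR adjusted p = 7.84e-05), Polr1a (0.17, 0.000284), Nhp2 (0.16, 0.00628), Ddx18 (0.14, 0.000934), Tcof1 (0.13, 0.00346), Wdr36 (0.12, 0.00231), Nop9 (0.11, 0.00464), Odc1 (0.068, 0.0256) and Rrs1 (0.052, 0.057). The order was the opposite for Nop56, with a difference of -0.14 (edgeR adjusted p = 0.00186), Pes1 (-0.10, 0.00333) and Nop2 (-0.044, 0.0652). Rrs1 and Nop2 did not pass the test of the difference. Unique reads made up 38.3% for Ddx18, 58.8% for Odc1, 64.7% for Pes1 and 70.4% for Nop56. Overlapping genes on the other strand held 31.9% as many reads as Nop56 and 20.9% as many as Nhp2. The median intron log2 fold of the 51 members was 0.22 after 1 day and -0.16 after 2 days, a difference of -0.38 that was not tested.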

How the results depend on the processing

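No member passed 1.5-fold in any comparison under any setting run. Among members past 0.1 on the log2 scale, the sign changed only for Pdcd11 after 2 days on unique gene and unique exon reads, and for Gnl3 between the fasting times on exon and unique exon reads. After 1 day the median fold was -0.026 with DESeq2 size factors and -0.021 on unique exon reads. After 2 days it was 0.10 with library size only, and the number of members past 1.2-fold was 7 on exon reads, 7 on unique exon reads and 4 to 8 when a library was left out, 8 without replicate 2 of the 2-day group. Between 2-day and 1-day fasting, 4 members passed 1.2-fold with library size only, on unique, exon or unique exon reads and on RPKM, and 2 to 4 with a library left out, 4 without replicate 2 of the 2-day group. The median there was 0.094 with library size only, 0.075 on exon reads, 0.086 on unique exon reads and 0.033 to 0.10 with a library left out. Intron medians with factors from intron reads were 0.10, -0.083 and -0.24 after 1 day, after 2 days and between the fasting times. With at least 300 intron reads they were 0.19, -0.19 and -0.47, and with at least 30 the last was -0.44. The causes were not tested. The largest shift of the median of all genes under another scaling was 0.06. Unique exon reads, intron factors, intron minimums, the 50 CPM background and the sums without Npm1 and Ncl were added after seeing the data. The edgeR test was also added then. Its count of members called ran from 6 to 21 after 1 day, 31 to 41 after 2 days and 17 to 40 between the fasting times with a library left out, and up to 23, 50 and 47 over the other alternatives. With a replicate block it was 17, 35 and 36, beside 21, 36 and 36 without. The labels do not say that a number marks a shared mouse or batch. Over genes, the difference between replicates 1 and 2 correlated between groups at r = 0.26 to 0.40 (rank correlation 0.02 to 0.11).

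Reads per member and library ran from 1111 to 150215, so counting error on gene reads is small. Whether the spread between mice was measured is not known, and small shared shifts cannot be told apart from scaling.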
